A study of Mus musculus with 8 samples.

Results

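The S100 proteins are small calcium-binding proteins, and 9 genes that encode members of this family outside calprotectin were examined in RNA sequencing of mouse cecal tumors. The 9 genes, S100a1, S100a4, S100a6, S100a10, S100a11, S100a13, S100a14, S100a16 and S100g, were taken by symbol from a table of 34586 gene symbols, which holds 16 S100 genes in all. The list was partly chosen by measured values, since S100a14 was put on it for its higher FPKM in the tamoxifen libraries of these same data, and its difference is therefore described without a test. GIST, the gastrointestinal stromal tumor, is a mesenchymal tumor of the gut wall that resembles its pacemaker cells, and these were cecal tumors of C57BL/6 mice. All 8 tumors carried Kit V558Delta/+, Etv1 flox/flox and Rosa26 CreERT2/CreERT2, that is 1 activated Kit allele, floxed alleles of the ETS factor gene Etv1 and a tamoxifen-activated Cre in the broadly active Rosa26 locus. The mice had received vehicle or tamoxifen (n = 4 libraries each), with the same alleles in both groups. Effects of tamoxifen itself and of a loss of Etv1 therefore cannot be told apart. Age, dose and treatment time were not stated in the labels. The labels also leave unsaid whether each library is another mouse. Xist, a transcript of female cells, measured 0.184 and 0.44 FPKM in vehicle replicates 1 and 4 and 289 and 261 in replicates 2 and 3. In tamoxifen replicates 1 and 2 it measured 0.249 and 0.226 FPKM, and in replicates 3 and 4 it measured 322 and 245. The libraries of a group thus did not all come from 1 mouse. With the number of mice unstated, p-values reflect only how much these libraries vary, part of which may be technical.

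S100 proteins mostly work as dimers whose EF-hand loops bind calcium, after which they expose a surface that docks on partner proteins. They have no catalytic activity, and many of their partners are annexins, cytoskeletal proteins or membrane proteins. Some members are typical of epithelium, others of muscle, mesenchymal or myeloid cells, and some are released and act on receptors such as Ager. In the intestine S100g, also called calbindin-D9k, is the vitamin D-responsive calcium buffer of absorptive cells.

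Most of the genes lie together on chromosome 3. In the deposited table (mm9), S100a1 (90314956 to 90318314), S100a13 (90318357 to 90328503), S100a14 (90330778 to 90332755), S100a16 (90341176 to 90347073), S100a4 (90407692 to 90409967) and S100a6 (90416816 to 90418336) follow each other closely. S100a11 (93324410 to 93330209) and S100a10 (93359002 to 93368565) lie farther along the same chromosome, and S100g (159339170 to 159470440) lies on chromosome X. The locus listed for S100g spans 131271 bases and overlaps Ctps2, so reads of the pair could have been divided either way. None of the other 8 loci overlaps another gene of the table.

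Promoter windows from RefSeq (GRCm38.p6, 250 bases before to 50 after a gene start) were found for 7 of the 9 genes, 8 windows in all. The windows were searched on both strands for CGGAAG, the core of many ETS sites, and GGGCGG, the GC box. They were also searched for TATAAA, the TATA box, and TGANTCA, a loose form of the AP-1 site that allows any middle base. Of 32851 windows in the table, 16.9% hold the ETS core and 7.81% TGANTCA, while 35.7% hold the GC box and 13.6% the TATA box. CGGAAG was in none of the 8 windows. The windows of S100a11 and S100a16 are shown because they are the only ones with TGANTCA, that of S100a6 because it holds none of the 4 motifs although this gene has the highest mean level, and that of S100a13 because it also holds the start of S100a1. Motif matches are in capitals, and S100a16 has a second start whose window holds no match.
S100a11, chr3:93520246-93520545, plus strand: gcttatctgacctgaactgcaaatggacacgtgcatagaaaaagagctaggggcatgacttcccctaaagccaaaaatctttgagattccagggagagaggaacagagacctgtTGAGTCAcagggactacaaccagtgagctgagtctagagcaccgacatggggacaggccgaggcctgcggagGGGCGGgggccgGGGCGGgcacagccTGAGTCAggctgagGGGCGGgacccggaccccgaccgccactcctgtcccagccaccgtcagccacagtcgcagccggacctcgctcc
S100a16, chr3:90540896-90541195, plus strand: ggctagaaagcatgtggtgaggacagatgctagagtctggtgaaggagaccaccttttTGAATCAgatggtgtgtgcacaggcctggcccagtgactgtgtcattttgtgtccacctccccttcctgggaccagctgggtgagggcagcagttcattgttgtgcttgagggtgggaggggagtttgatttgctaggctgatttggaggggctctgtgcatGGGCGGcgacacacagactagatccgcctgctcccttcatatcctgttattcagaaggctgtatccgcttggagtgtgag
S100a6, chr3:90612644-90612943, plus strand: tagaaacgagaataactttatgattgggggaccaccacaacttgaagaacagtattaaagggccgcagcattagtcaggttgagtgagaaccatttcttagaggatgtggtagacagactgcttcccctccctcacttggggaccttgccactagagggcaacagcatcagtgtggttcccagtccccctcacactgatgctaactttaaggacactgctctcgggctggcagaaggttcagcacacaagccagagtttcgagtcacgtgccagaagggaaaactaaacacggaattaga
S100a13, chr3:90514185-90514484, plus strand: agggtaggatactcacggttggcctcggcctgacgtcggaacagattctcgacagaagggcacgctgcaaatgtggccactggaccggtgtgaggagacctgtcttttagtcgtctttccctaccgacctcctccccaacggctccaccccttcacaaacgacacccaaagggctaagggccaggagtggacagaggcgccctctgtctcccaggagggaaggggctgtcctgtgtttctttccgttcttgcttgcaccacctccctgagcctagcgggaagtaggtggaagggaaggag
S100a11 has TGANTCA at 136 and 38 bases and GGGCGG at 64, 52 and 24 bases before its start, with no overlap among them. The S100a16 window has TGANTCA, here as TGAATCA, at 192 and GGGCGG at 30 bases before the start. S100a1 and S100a13 are read in opposite directions from starts 105 bases apart. Of the windows not printed, S100a4 has TATAAA at 31 bases before its start and S100g has it at the start itself. A match of letters is a description of the window and not evidence that a factor binds there.

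Values are FPKM, which scales fragments to transcript length and library size, a level per length that allows comparison between genes. Each library had 14176 to 14841 symbols at 1 FPKM or more. Depth is not known in reads; relative to vehicle replicate 1 it was estimated at 0.821 to 1.16 from the lowest values. Between 5.42% and 54.6% of a library's summed FPKM came from Ighj1 and Ighj4, segments of the antibody heavy chain locus. Etv1 itself ranged from 34.6 to 51.1 FPKM in vehicle and from 17.4 to 34.9 in tamoxifen libraries, so that 1 tamoxifen library, replicate 1, lay within the vehicle range. For the labelled tumor type, 7 markers of interstitial cells of Cajal and GIST were read, with Kit and Ano1 the defining genes. All were above a mean of 1 FPKM, and they summed to 1547 to 2278 FPKM in vehicle and 1120 to 1595 in tamoxifen libraries. Since 15023 genes reached that mean, it cannot check the tumor type, which rests on the labels.

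The members of the family fell into a set that was higher after tamoxifen and a set that differed little. S100a6, S100a11 and S100a16 rose past the threshold, an adjusted p of 0.05 by limma over 15023 tested genes, and S100a14 was higher in every tamoxifen library, as a description. S100a10 was higher in every tamoxifen library but did not pass, and S100a1, S100a4, S100a13 and S100g did not pass either. All 9 genes passed the filter of a mean of 1 FPKM. Counting S100a14, 4 of the 9 were called higher and 0 lower by limma, where 5.45% of all tested genes were called, 2.38% higher and 3.07% lower. In 5 of the 9 the groups did not overlap, always with tamoxifen higher, where 15.1% of all tested genes had such groups, 7.37% higher and 7.74% lower. Nothing is read from these counts, because the list was made with the rise of S100a14 in view. The median log2 fold change of the 9, S100a14 included, was 1.14, against 0.01 over all tested genes. Nothing is read from this median either, for the same reason. The libraries are bulk tumor, in which more cells of a type and more RNA per cell cannot be told apart.

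**Figure D1:**
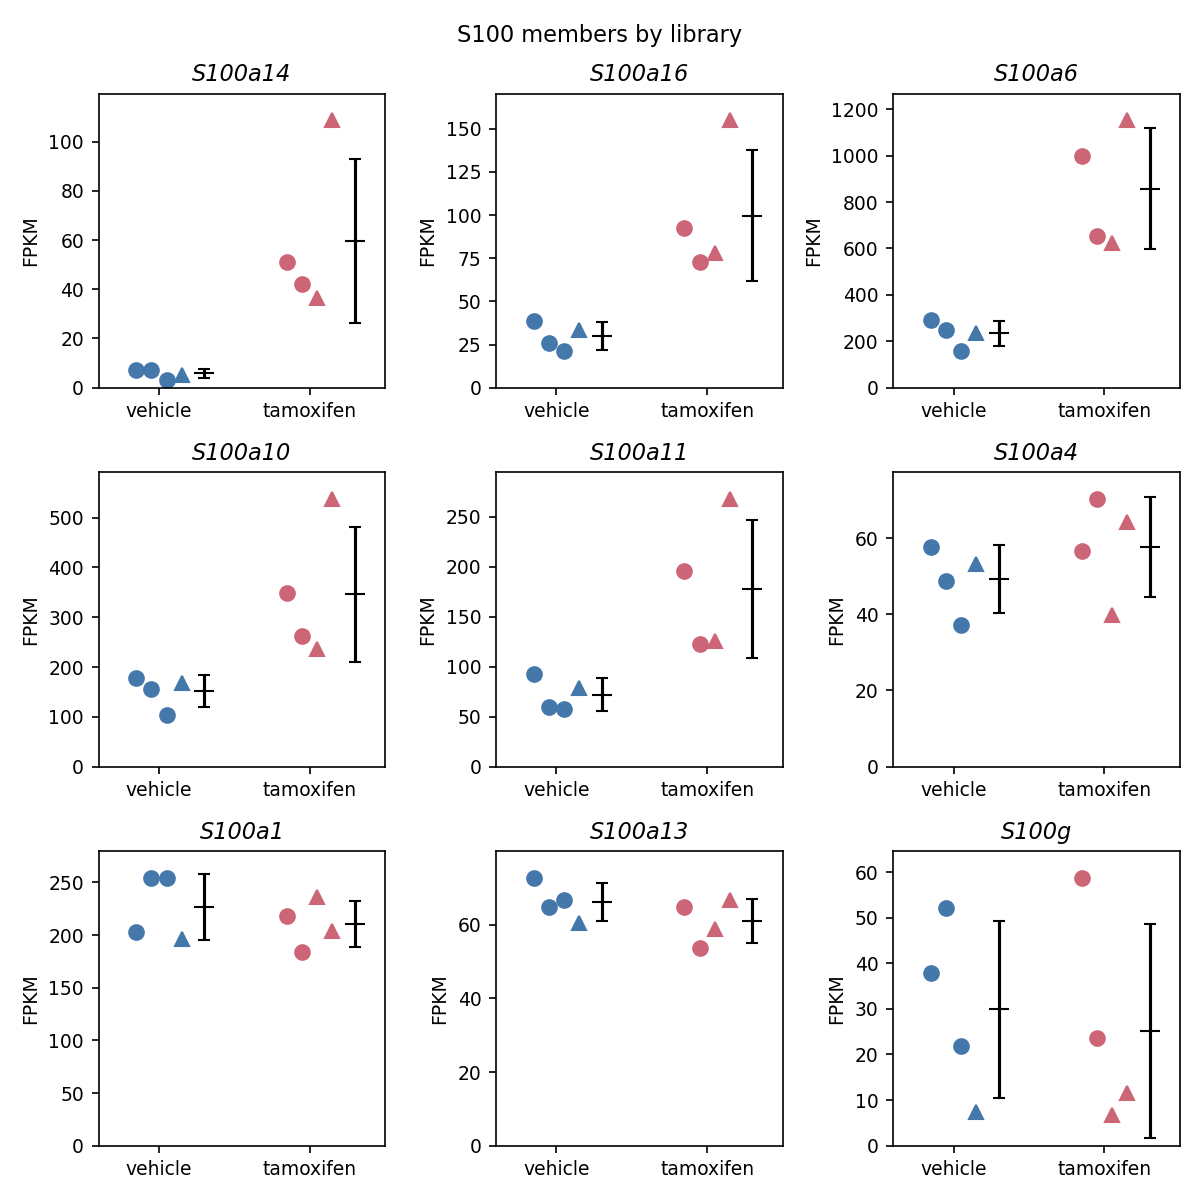
FPKM (linear axis from 0) of the 9 S100 genes in each library, vehicle in blue and tamoxifen in red, with the mean and SD of the 4 libraries in black; circles and triangles are libraries with lower and higher sample identifier numbers. In S100a14, S100a16, S100a6, S100a10 and S100a11 all tamoxifen points lie above all vehicle points, and in S100g the 3 triangles lie below the 5 circles.

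S100a14, a protein of epithelial cells, had the largest relative difference. It measured 7.37, 7.28, 3.08 and 5.31 FPKM in vehicle replicates 1 to 4 and 50.9, 42.1, 36.5 and 108.7 FPKM in tamoxifen replicates 1 to 4. The groups were far apart, with tamoxifen replicate 4 well above the other tamoxifen libraries. The log2 fold change of FPKM + 1 was 3.08, the 23rd highest among the tested genes, and the ratio of the mean FPKM was 10.3. In vehicle tumors it was the lowest of the 9 genes, while in tamoxifen tumors it was level with S100a13 and S100a4, whose ranges its own overlaps.

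S100a16, a widely expressed member whose gene follows that of S100a14, rose too. It measured 38.8, 26.0, 21.0 and 33.7 FPKM in the vehicle libraries and 92.6, 72.7, 78.1 and 155 FPKM in the tamoxifen libraries. Every tamoxifen value was above every vehicle value, and replicate 4 was again the highest. The log2 fold change was 1.67 (SE 0.27, limma adjusted p = 0.0158, n = 4 each). Without vehicle replicate 2 the adjusted p was 0.0507, and without each of the other 7 libraries it stayed below the threshold. Because S100a16 changed less than S100a14, the FPKM ratio of S100a14 to S100a16 was 0.193 ± 0.060 in vehicle and 0.574 ± 0.097 in tamoxifen libraries (SD, n = 4 each), with no overlap.

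S100a6, or calcyclin, a growth-inducible protein that binds annexin A11 and the calcyclin-binding protein Cacybp, had the largest rise in absolute level. It measured 291, 248, 160.05 and 236 FPKM in vehicle replicates 1 to 4 and 999.7, 654, 625 and 1153 FPKM in tamoxifen replicates 1 to 4. The lowest tamoxifen library had more than the highest vehicle library. The log2 fold change was 1.85 (SE 0.26, limma adjusted p = 0.0106), and it stayed past the threshold in all 10 other settings and without each of the 8 libraries. By mean FPKM it moved from rank 354 to rank 67 among the 15023 tested genes. It made up 26.7% ± 3.30 of the summed FPKM of the 9 genes in vehicle and 45.1% ± 2.03 in tamoxifen libraries (SD, n = 4 each).

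Neither Anxa11 nor Cacybp, the partners of S100a6 named above, passed the threshold. Anxa11 measured 17.5 to 23.1 FPKM in vehicle and 16.6 to 28.5 in tamoxifen libraries (log2 fold change 0.20, limma adjusted p = 0.538, n = 4 each). Cacybp, which links S100 proteins to ubiquitin ligases, measured 44.8 ± 7.02 and 33.9 ± 5.69 FPKM (log2 fold change -0.39, limma adjusted p = 0.194).

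S100a11, a partner of annexin A1, measured 92.4, 59.3, 57.3 and 78.9 FPKM in the vehicle libraries and 196, 123, 125 and 268 FPKM in the tamoxifen libraries. The groups did not overlap, and in tamoxifen tumors replicates 1 and 4 stood above replicates 2 and 3. The log2 fold change was 1.24 (SE 0.28, limma adjusted p = 0.043). Leaving out any library but tamoxifen replicate 3 ended the call, and the adjusted p reached 0.12 when vehicle replicate 3 was dropped. In 6 of the 10 other settings S100a11 passed.

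S100a10, or p11, differs from most of the family in that it no longer needs calcium, and it forms a tetramer with annexin A2 that binds plasminogen at the cell surface. It measured 178, 157, 104 and 168 FPKM in the vehicle libraries and 348, 262, 236 and 537 FPKM in the tamoxifen libraries. Its groups did not overlap, but the spread among tamoxifen libraries was wide. The log2 fold change was 1.14 (SE 0.28, limma adjusted p = 0.0548), so S100a10 missed the threshold by a little. It passed without tamoxifen replicate 3 (adjusted p = 0.0453) and in none of the 10 other settings, where the adjusted p ran from 0.051 to 0.088. S100a10 took the same share of the 9 genes' FPKM in both groups, 17.4% ± 2.36 in vehicle and 17.9% ± 2.07 in tamoxifen libraries (SD, n = 4 each).

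Of the annexin partners, Anxa1 and Anxa2 rose. Anxa2, the partner of S100a10, measured 134, 118, 77.4 and 124 FPKM in the vehicle libraries and 365, 336, 261 and 685 FPKM in the tamoxifen libraries (log2 fold change 1.78, SE 0.30, limma adjusted p = 0.0175). It lost the call without vehicle replicates 2 and 3 (adjusted p = 0.0509 and 0.0525). The FPKM ratio of Anxa2 to S100a10 was nearly constant in vehicle tumors, at 0.751, 0.752, 0.744 and 0.742 in replicates 1 to 4. In tamoxifen tumors it was 1.05, 1.28, 1.102 and 1.28, higher in 4 of 4 libraries and more scattered. This ratio was computed after the values were seen and was not tested.

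Anxa1, the partner of S100a11 and a mediator of the resolution of inflammation, measured 31.2, 47.9, 41.8 and 43.9 FPKM in the vehicle libraries and 224, 198, 81.0 and 208 FPKM in the tamoxifen libraries. It rose (log2 fold change 1.99, SE 0.32, limma adjusted p = 0.0153), with tamoxifen replicate 3 the lowest of its group. The ratio of Anxa1 to S100a11 ran from 0.338 to 0.808 in vehicle and from 0.647 to 1.61 in tamoxifen libraries, so that the groups overlapped. Ahnak, a giant scaffold protein bound by S100a10 and annexin A2, measured 95.3 ± 6.85 and 131 ± 24.7 FPKM (log2 fold change 0.43, limma adjusted p = 0.141, n = 4 each).

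**Figure D2:**
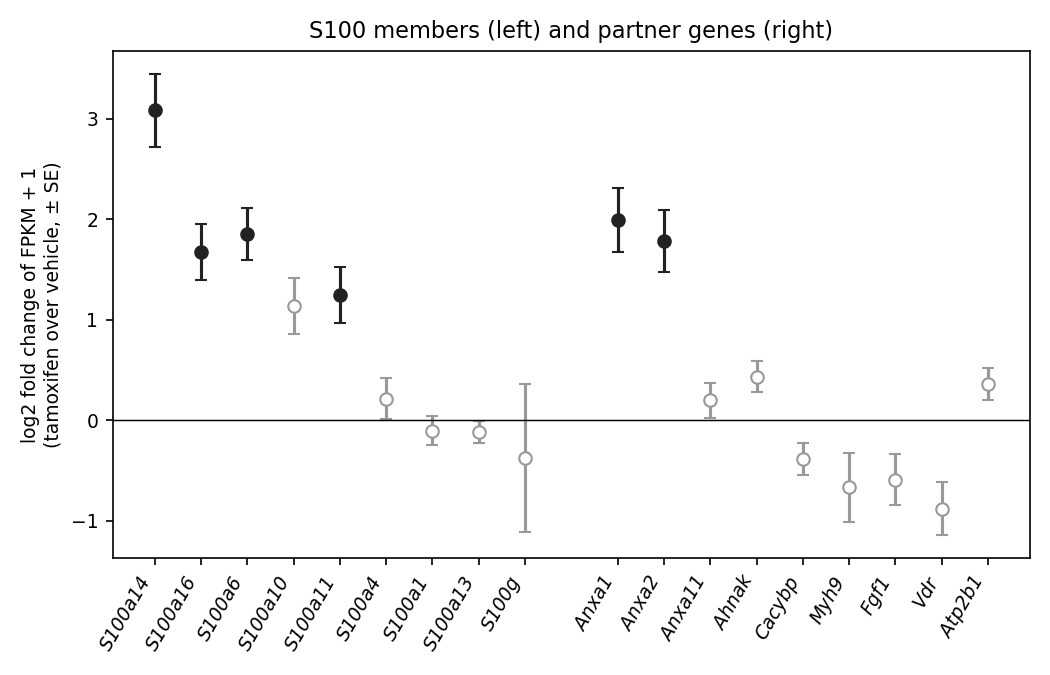
Log2 fold change of FPKM + 1, tamoxifen over vehicle, with its SE, for the 9 S100 genes on the left and for 9 partner and calcium absorption genes on the right; filled points passed an adjusted p of 0.05. S100a14 is shown as a description. Anxa1 and Anxa2 stand at 1.99 and 1.78, and the other 7 genes drawn on the right, Anxa11, Ahnak, Cacybp, Myh9, Fgf1, Vdr and Atp2b1, lie between -0.88 and 0.43.

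S100a4, known as metastasin, binds non-muscle myosin IIA and is typical of mesenchymal and myeloid cells. It measured 57.8, 48.8, 37.1 and 53.2 FPKM in the vehicle libraries and 56.5, 70.2, 39.9 and 64.1 FPKM in the tamoxifen libraries. The groups overlapped over most of their range (log2 fold change 0.21, SE 0.21, limma adjusted p = 0.578). Myh9, the heavy chain it binds, measured 82.9 ± 20.4 and 54.5 ± 20.7 FPKM (log2 fold change -0.67, limma adjusted p = 0.292, n = 4 each).

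S100a1, which tunes calcium release and uptake in muscle, was among the most abundant members in both groups. It measured 203, 254, 254 and 196 FPKM in the vehicle libraries and 218, 184, 236 and 204 FPKM in the tamoxifen libraries. The groups overlapped, and the log2 fold change was -0.10 (SE 0.14, limma adjusted p = 0.703). In vehicle tumors it was level with S100a6, above it in 2 of 4 libraries, while in tamoxifen tumors S100a6 was 2.65 to 5.65 times as high in every library. The 9 skeletal and cardiac muscle markers summed to 9.86 to 12.0 FPKM in vehicle and 20.1 to 52.9 in tamoxifen libraries, most of it from Tnnt3 and Myl7, the only 2 tested, and 0 passed by limma (adjusted p = 0.0596 and 0.0611). Ckm was at most 0.68 FPKM and overlapped between the groups, and Myh1, Myh4 and Myh6 stayed below 0.1 FPKM in every library. S100a1 overlapped between the groups while that sum did not. The 7 smooth muscle markers summed to 204 to 395 FPKM in vehicle and 329 to 423 in tamoxifen libraries. Their sums overlapped, and 0 of 7 passed by limma. The part of muscle in the values of S100a1 was not tested.

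S100a13 helps to release fibroblast growth factor 1 from cells by a route that bypasses the secretory pathway. It had the narrowest spread of the 9 genes, with 72.7, 64.9, 66.8 and 60.5 FPKM in the vehicle libraries and 64.8, 53.6, 59.0 and 66.8 FPKM in the tamoxifen libraries. The ranges overlapped (log2 fold change -0.12, SE 0.11, limma adjusted p = 0.578). Fgf1 measured 179 ± 40.1 and 121 ± 42.7 FPKM (log2 fold change -0.59, limma adjusted p = 0.22, n = 4 each). The divergent neighbours S100a1 and S100a13 kept a similar ratio of FPKM, 3.44 ± 0.519 in vehicle and 3.46 ± 0.393 in tamoxifen libraries (SD, n = 4 each).

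S100g was the most variable member, and its variation did not follow the treatment. It measured 38.0, 52.2, 21.8 and 7.46 FPKM in the vehicle libraries and 58.6, 23.7, 6.62 and 11.5 FPKM in the tamoxifen libraries. The groups overlapped fully (log2 fold change -0.38, SE 0.74, limma adjusted p = 0.80). The low values were those of vehicle replicate 4 and tamoxifen replicates 3 and 4, the 3 libraries whose sample identifiers have higher numbers than the other 5. In those 3 libraries S100g ran from 6.62 to 11.5 FPKM, and in the other 5 from 21.8 to 58.6. The labels do not say what the identifiers stand for. With the identifier range in the model, its coefficient for S100g was -2.03 (SE 0.39, limma adjusted p = 0.291), and 0.0466% of tested genes passed for that term. The treatment coefficient of S100g was then 0.13 (limma adjusted p = 0.849). The overlapping gene Ctps2 showed no such split, with 64.7 to 91.5 FPKM in the 3 libraries and 60.3 to 85.6 in the 5.

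Within each identifier range the other members kept their direction where they had differed. With 3 vehicle and 2 tamoxifen libraries in the lower range, the log2 difference was 2.85 for S100a14, 1.84 for S100a6, 1.53 for S100a16, 1.18 for S100a11 and 1.08 for S100a10. In the higher range, with 1 vehicle and 2 tamoxifen libraries, it was 3.35, 1.84, 1.68, 1.21 and 1.08 in the same order.

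Of 11 genes of epithelial calcium absorption, a list that stands beside S100g, 6 were tested and 0 passed by limma in either direction. Vdr, the vitamin D receptor, measured 12.0 ± 2.49 and 6.27 ± 2.16 FPKM without overlap of the groups (log2 fold change -0.88, SE 0.26, limma adjusted p = 0.092, n = 4 each). Atp2b1, the calcium pump of the basolateral membrane, measured 21.9 ± 2.95 and 28.5 ± 5.79 FPKM (log2 fold change 0.36, limma adjusted p = 0.23). Trpv6, the apical calcium channel, was too low to be tested, at 0.140 to 1.85 FPKM in vehicle and 0.00877 to 0.103 FPKM in tamoxifen libraries.

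In the wider lists most genes did not pass the threshold, where 2.38% of all tested genes were called higher and 3.07% lower by limma. Of 19 tested partners and receptors of S100 proteins, 2 rose, Anxa1 and Anxa2, and 0 fell, with a median log2 fold change of 0.23 against 0.01 over all tested genes. Ager, a receptor for released S100 proteins, measured 2.98 ± 1.55 and 7.85 ± 4.45 FPKM with overlapping groups (log2 fold change 1.103, limma adjusted p = 0.134, n = 4 each). Of 10 tested annexins, 3 rose and 0 fell, the third being Anxa8, an annexin of squamous epithelium, which went from 1.64 ± 0.861 to 25.1 ± 13.3 FPKM (log2 fold change 3.21, limma adjusted p = 0.0066). Anxa5 measured 141 ± 14.6 and 103 ± 9.75 FPKM (log2 fold change -0.44, limma adjusted p = 0.0759), and did not pass. Among 20 tested EF-hand sensors and buffers outside the S100 family, Nucb2, a Golgi calcium protein, rose (log2 fold change 0.60, limma adjusted p = 0.0365) and Rcn1, a calcium buffer of the endoplasmic reticulum, fell (log2 fold change -0.92, limma adjusted p = 0.0074), and 18 did not pass. The call of Nucb2 held without 1 of the 8 libraries, vehicle replicate 1, and its adjusted p reached 0.106 without vehicle replicate 3. The median of that list was -0.21.

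The remaining S100 genes were low or belong to calprotectin. S100a3, S100a5, S100a7a and S100z did not exceed 0.319 FPKM in any library, and S100b, a glial member, measured 1.11 ± 0.217 and 1.14 ± 0.221 FPKM (n = 4 each). The calprotectin genes, typical of neutrophils, rose. S100a8 measured 2.68 to 9.45 FPKM in vehicle libraries and 33.7, 168, 44.8 and 185 FPKM in tamoxifen replicates 1 to 4 (log2 fold change 3.81, SE 0.60, limma adjusted p = 0.014). S100a9 measured 1.54 to 5.98 FPKM in vehicle libraries and 19.3, 76.5, 30.2 and 104 FPKM in tamoxifen replicates 1 to 4 (log2 fold change 3.28, SE 0.55, limma adjusted p = 0.0165). Thus tamoxifen replicate 2 was the second highest library for calprotectin and the third highest for S100a14.

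Along chromosome 3, members that were higher after tamoxifen and members that differed little lay next to each other. Whether position plays a part was not tested. From the first to the last member on that chromosome, a stretch of 3.05 Mb, the table has 80 genes, of which 16 were tested, 8 of them outside the list. Of the 16, 8 were called higher, 4 of them outside the list, and 0 lower by limma, where 2.38% of all tested genes were called higher and 3.07% lower; S100a14 is among the 8, and nothing is read from the count. S100a4, with a log2 fold change of 0.21, lies between S100a16 and S100a6, with 1.67 and 1.85, and S100a1 and S100a13 directly precede S100a14.

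**Figure D3:**
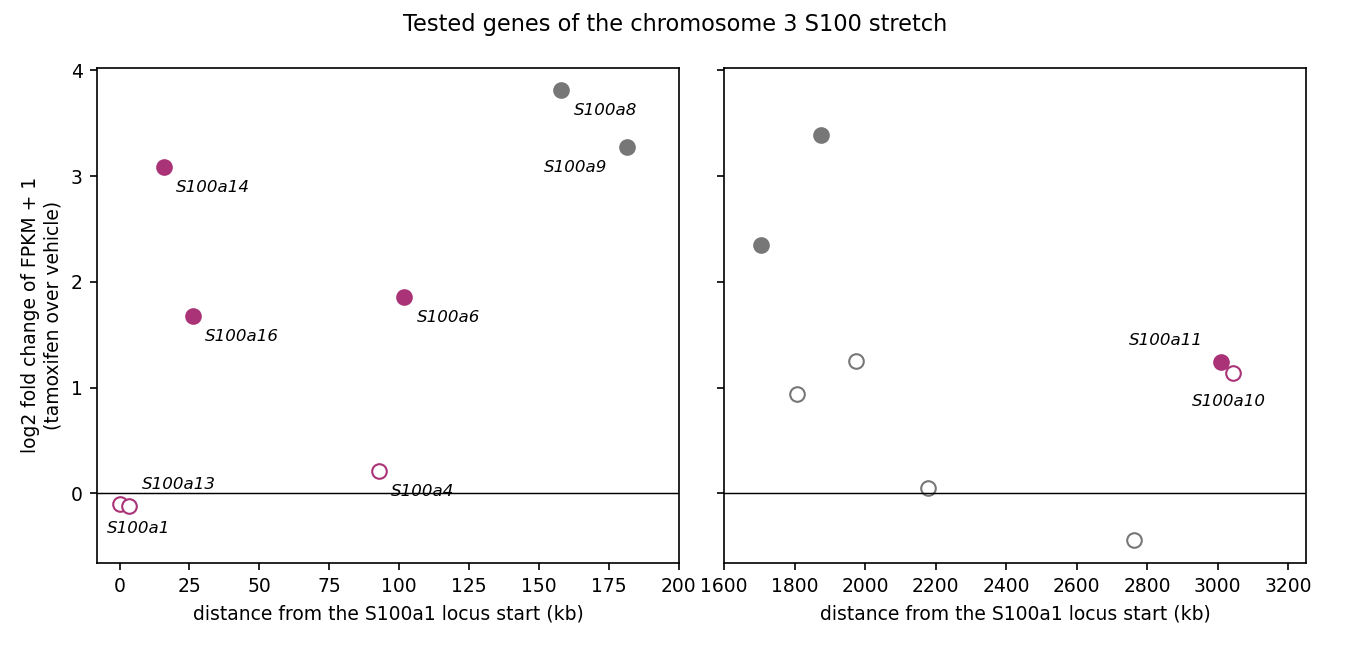
Log2 fold change of FPKM + 1, tamoxifen over vehicle, of the 16 tested genes from S100a1 to S100a10 against the distance of their locus start from that of S100a1 in kb, in 2 panels because no tested gene lies between them; listed S100 genes are purple, other genes grey, and filled points passed an adjusted p of 0.05. S100a1, S100a13 and S100a4 lie near 0 among neighbours at 1.67 to 3.81.

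Within groups, the 5 genes that were higher after tamoxifen also went up and down together across libraries. With the group means removed, Pearson's r over the 8 libraries was 0.80 to 0.96 for the 10 pairs among S100a6, S100a10, S100a11, S100a14 and S100a16 (Spearman's rho 0.81 to 0.98). S100a10 and S100a14 were the closest pair by r, and S100a10 and S100a16 by rho. The pattern was not limited to the 5. S100a4 had r of 0.49 to 0.64 with them and S100a13 0.54 to 0.72, with rho up to 0.81 against S100a11. S100a4 had r of 0.84 to 0.99 with them among vehicle and 0.28 to 0.47 among tamoxifen libraries. S100a13 had 0.03 to 0.32 among vehicle and 0.73 to 0.91 among tamoxifen libraries. S100a1 had mostly negative values, with r of -0.82 to 0.22 over its 8 pairs and the lowest value against S100a4, and S100g was unrelated to the rest, with r of -0.13 to 0.34. Tamoxifen replicate 4 was the highest and vehicle replicate 3 the lowest library of its group in all 5 genes, and values without them were not computed. Of 14974 other genes, 1.40% to 2.81% had r of 0.8 or more with one of the 5.

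**Figure D4:**
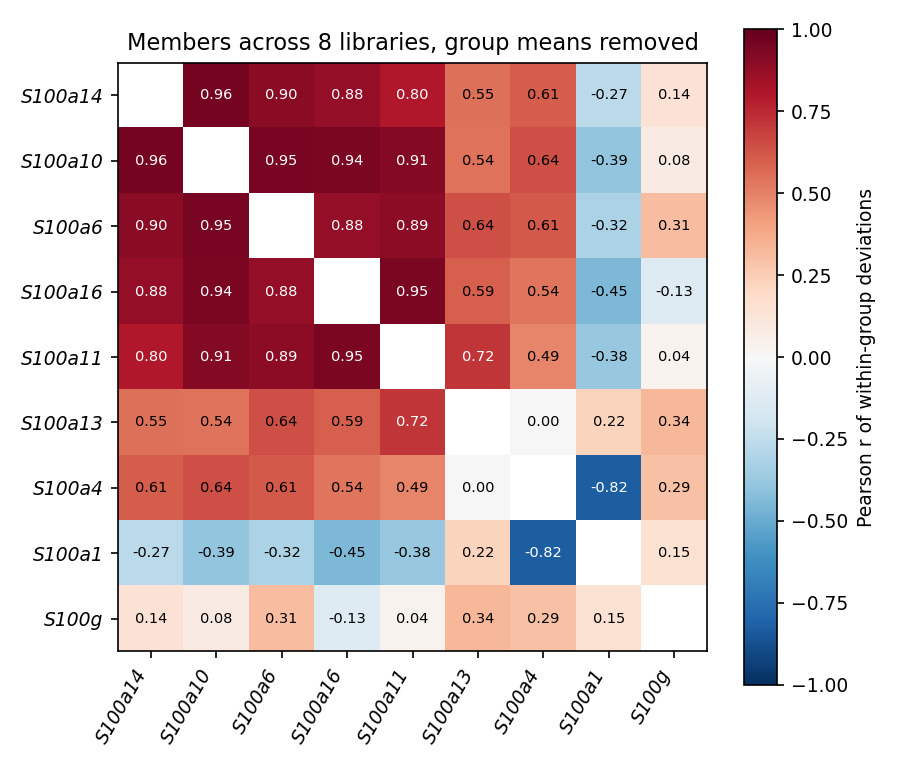
Pearson's r of log2(FPKM + 1) between the S100 genes over 8 libraries after the group means were removed, with blue negative and red positive. The block of S100a14, S100a10, S100a6, S100a16 and S100a11 holds values of 0.80 to 0.96, and the S100a1 row is mostly negative.

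The genes most like each member were sought in the same way among 12271 tested genes. For S100a14 they were Anxa4 (r = 0.98), Gpx2 (0.98) and Foxd2 (0.98), and for S100a10 Tmem150b (1.00), Cldn23 (0.99) and Gmds (0.99). For S100a6 they were Degs2, Fbp2 and Rdh10 (r = 0.97 each), for S100a16 Amz1 (0.98), Nkain1 (0.97) and Nrarp (0.97), and for S100a11 Gpc3 (0.96), Ceacam12 (0.95) and Amz1 (0.95). S100a4 was most like Muc1 (r = 0.98), Tex14 (0.97) and Ccl8 (0.96), S100a1 like St3gal5, Ubl4 and Ndufs3 (0.98 each), and S100a13 like Tmem93 (0.98), Snrpd3 (0.98) and Yipf1 (0.96). For S100g they were Nup43 (r = 1.00), Gtf2h2 (0.99) and Fastkd5 (0.98). They were the best of 12271 genes over 8 libraries and name similar patterns only. Without the 2 libraries farthest from the median of the member, r stayed between 0.76 and 0.99 for all of these pairs.

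Most epithelial markers did not pass the threshold, but most changes were positive. Of 18 intestinal epithelium markers tested, 2 rose and 0 fell past the threshold, where 2.38% of all tested genes were called higher and 3.07% lower. There were 14 positive and 4 negative changes, with a median log2 fold change of 0.74 against 0.01 over all tested genes. Groups did not overlap in 5 of the 18, where 15.1% of all tested genes had such groups. Among these 5, Krt8, Krt19 and Krt20 were higher but did not pass (log2 fold change 0.90, 1.00 and 1.35). The summed level of the 18 overlapped between the groups, at 2002 to 3181 FPKM in vehicle and 3039 to 5970 in tamoxifen libraries. Cldn4, a tight junction protein, rose from 6.13 ± 2.92 to 52.6 ± 27.3 FPKM (log2 fold change 2.87, limma adjusted p = 0.00765) and Krt18, a keratin of simple epithelium, from 24.4 ± 5.91 to 79.0 ± 45.6 FPKM (log2 fold change 1.55, limma adjusted p = 0.0391, n = 4 each). The call of Krt18 held without 2 of the 8 libraries, tamoxifen replicates 3 and 4, and the adjusted p reached 0.109 without vehicle replicate 3. The 4 negative values, none past the threshold, were Slc26a3, a chloride exchanger (-1.47), Aqp8, a water channel (-0.84), Fabp2 (-0.29) and Tff3 (-0.15). Of 16 squamous epithelium markers 5 were tested and 1 rose, Perp, a desmosome protein (log2 fold change 1.37, limma adjusted p = 0.0335), a call that held without 1 of the 8 libraries, tamoxifen replicate 3, with an adjusted p of up to 0.0903 without vehicle replicate 3 and of 0.0522 with the replicate number as a block. The squamous sum was 45.4 to 70.0 FPKM in vehicle and 93.0 to 200 in tamoxifen libraries, while Krt6a, Trp63, Dsg3, Ivl and Sprr3 stayed below 0.1 FPKM in every library. The part of epithelium in the S100 differences was not tested.

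Markers of other cell types differed between the groups for some types and overlapped for others. Over all tested genes, 2.38% were called higher and 3.07% lower by limma. Of the 7 markers of interstitial cells of Cajal and GIST, 6 had a negative and 1 a positive change. Their median log2 fold change was -0.70, and their sums, given above, overlapped between the groups. Only Edn3 was called, as lower (log2 fold change -1.05, limma adjusted p = 0.0333). Neutrophil markers, 10 in all with 4 called higher among 6 tested, summed to 7.52 to 27.9 FPKM in vehicle and 181 to 475 in tamoxifen libraries. The 4 were Ly6g, Retnlg and the calprotectin genes S100a8 and S100a9 already described. Csf3r (log2 fold change 0.17, limma adjusted p = 0.858) and Mmp8 (1.03, limma adjusted p = 0.176) did not pass. Retnlg had means of 0.641 FPKM in vehicle and 8.31 in tamoxifen libraries, and Mmp8 had 0.207 and 1.86. Both reached the filter of 1 FPKM only through the tamoxifen libraries, so nothing is read from the count of 4 among 6. T and NK cell markers, with 7 of 8 called lower, summed to 185 to 257 and 89.4 to 126 FPKM. Macrophage markers (806 to 1144 against 705 to 2299 FPKM) and fibroblast markers (461 to 788 against 657 to 1258 FPKM) overlapped between the groups, with 0 of 10 and 0 of 8 past the threshold by limma. Endothelial markers summed to 30.2 to 43.8 FPKM in vehicle and 48.4 to 75.0 in tamoxifen libraries, and 5 of 5 had a positive change. Pecam1 (log2 fold change 0.75, limma adjusted p = 0.0335) and Tek (0.68, limma adjusted p = 0.0458) were called higher. Without vehicle replicate 3 the adjusted p was 0.102 for Pecam1 and 0.131 for Tek, and the calls held without 2 and 1 of the 8 libraries. Their part in the values of S100a4 and the other members was not tested.

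Set against Epcam, an adhesion protein of epithelial cells that measured 127 ± 22.8 FPKM in vehicle and 246 ± 103 in tamoxifen libraries (limma adjusted p = 0.13, n = 4 each), the 5 genes separated. S100a14 had 0.0327 to 0.0532 FPKM per FPKM of Epcam in vehicle and 0.199 to 0.284 in tamoxifen libraries, a 5.39-fold difference of the means. S100a6 had 1.82 ± 0.188 and 3.65 ± 0.682, and S100a16 had 0.234 ± 0.0438 and 0.421 ± 0.0964, again with no overlap of the groups (SD, n = 4 each). The ratio was 1.19 ± 0.110 and 1.44 ± 0.183 for S100a10 and 0.571 ± 0.112 and 0.741 ± 0.127 for S100a11, with overlapping groups. Per Cdh1, which encodes E-cadherin, S100a14 and S100a6 were also apart, while S100a16, S100a10 and S100a11 overlapped. These ratios were chosen after the values were seen and were not tested. Such ratios depend on the marker, since the mean FPKM ratio of tamoxifen to vehicle was 1.93 for Epcam and 1.85 for Cdh1. Across the 18 intestinal epithelium markers it ran from 0.385 for Slc26a3 to 8.57 for Cldn4, with 3.24 for Krt18. Ratios of the S100 genes to the other markers were not computed.

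**Figure D5:**
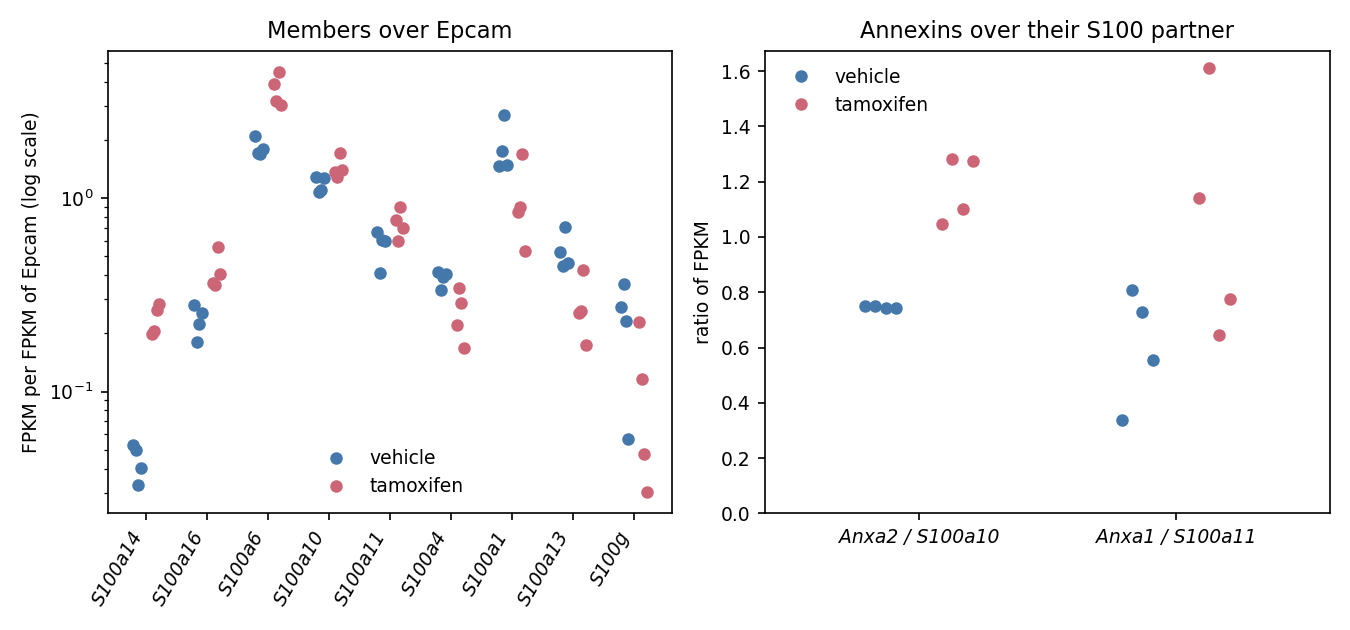
Left, FPKM of each S100 gene per FPKM of Epcam in the same library (log axis); right, the FPKM ratio of Anxa2 to S100a10 and of Anxa1 to S100a11 (linear axis from 0). Each point is a library, vehicle in blue and tamoxifen in red. S100a14 per Epcam lies at 0.0327 to 0.0532 in vehicle and 0.199 to 0.284 in tamoxifen libraries, and the 4 vehicle values of Anxa2 to S100a10 lie between 0.742 and 0.752.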

How the data were processed

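The 8 libraries are RNA sequencing of cecal tumors, with groups and replicate numbers from the sample titles. Total RNA was purified from explanted tumors and libraries were made with Illumina protocols, per the labels' protocols. The authors deposited FPKM per gene and library with a status and confidence bounds, per the file headers. STAR 2.3, Cufflinks and Cuffdiff with mm9 are named in the submitters' processing notes. Their roles, the annotation, strandedness and scaling between libraries were not found in the labels or headers. The authors' bounds, of unstated level, lay 46.4% to 106% of the FPKM from it for the S100 genes. Listed starts count from 0, checked on gene widths, and are printed from 1. Of 9 S100 genes, 0 had a failed value. Over all genes, 178 values with FAIL or HIDATA status were treated as missing, and rows were summed per symbol. Genes with a mean of at least 1 FPKM and 2 estimates per group (15023) were compared on log2(FPKM + 1), which understates changes of low genes, with limma 3.58.1 in R 4.3.3 (trend, 2-sided, Benjamini-Hochberg, threshold 0.05). On simulated data for 14975 genes of tamoxifen against vehicle it recovered 55% of genes changed by 1 and 91% of those changed by 2 (log2). The members and lists were chosen with earlier results of these data known. The text names all members, up to 4 genes of each list with the smallest p, known partners and the 3 genes most like each member; not all of them are given. Other settings were pseudocounts of 0.1 and 0.25, no filter or a mean of 5 FPKM, scaling by median ratio or to the same total without Ighj1 and Ighj4, failed values as listed, the replicate block, the identifier range and, added after the data were seen, the Xist level as covariates, and leaving out each library.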

Additional observations from a re-analysis of the deposited data

Results flagged for a closer look

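Values of 1 library stood apart from the other 3 of its group, by Dixon's test at the 95% level, in 6 of 132 groups, those of the genes examined in this way. Chance flags about 1 in 20 groups. Vdr had its lowest tamoxifen value, 3.03 FPKM, in replicate 3, against 7.25 to 7.41 FPKM in the other tamoxifen libraries. Krt18 had its highest tamoxifen value, 147 FPKM, in replicate 4, against 53.7 to 61.3 FPKM in the others. Gpx2, one of the genes most like S100a14, reached 461 FPKM in tamoxifen replicate 4, against 107 to 143 FPKM. Myl7 reached 17.3 FPKM in the same library, against 3.05 to 5.02 FPKM. Fabp2 had its highest tamoxifen value, 43.4 FPKM, in replicate 1, against 10.4 to 15.99 FPKM. Tek had its highest vehicle value, 3.21 FPKM, in replicate 4, against 2.35 to 2.48 FPKM. None of the 9 S100 genes was flagged.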

How the results depend on the processing

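The directions of S100a6, S100a10, S100a11, S100a14, S100a16, Anxa1 and Anxa2 held in all 10 other settings and without each of the 8 libraries, and the call of S100a6 held in all of them. S100g changed sign with the identifier range as a covariate (log2 fold change 0.13) and without tamoxifen replicate 3 (0.0715), ran from -0.92 to 0.0715 over the libraries left out, and passed in no setting. Near 0, S100b also changed sign, with scaling to the same total (-0.040) and without vehicle replicate 3 (-0.042) or tamoxifen replicate 1 (-0.051), as did Tff3 without tamoxifen replicate 3 (0.043); over the libraries left out they ran from -0.051 to 0.078 and from -0.34 to 0.043. The number of genes called was 534 with a mean of at least 5 FPKM, of which 207 higher, against 819 and 358; this setting tests fewer genes. With the replicate block 252 genes were called, 113 higher and 139 lower, and genes of the partner, annexin, calcium absorption and EF-hand lists called higher were 2 rather than 4; Anxa1, Nucb2, Perp, Pecam1 and Tek lost their calls with it (limma adjusted p = 0.0502, 0.0872, 0.0522, 0.0774 and 0.0935), and no call of the 9 S100 genes changed. Same-numbered deviations correlated at -0.156 to 0.145 and others at -0.145 to 0.151. These values show no pairing by replicate number, but so few correlations cannot exclude it. With the identifier range as a covariate 2 list genes were called lower rather than 1. Without 1 library each, 268 to 856 genes were called, 103 to 420 higher and 160 to 436 lower, 2 to 5 members and 2 to 4 list genes were called higher, and 0 members and 1 list gene lower. The causes were not tested. The libraries whose omission left the fewest calls were vehicle replicates 2, 3 and 4 (288, 268 and 274 genes). Depth is unknown, so no limit can be set on low values such as Trpv6.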
